A study of Mus musculus with 12 samples.

Results

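The 12 arrays of this experiment formed a 2 by 2 design, in which C57MG cells received neither, 1 or both of a pair of signalling proteins, and all 12 of the 12 arrays in the series were used. C57MG is a line of mouse mammary epithelial cells. Monolayers in unsupplemented DMEM were exposed for 24 h to 1 of 4 conditions: the carrier bovine serum albumin (BSA), 100 ng/ml recombinant human R-spondin2 (Rspo2), 100 ng/ml recombinant mouse Wnt3a, or both proteins at 100 ng/ml each. Each group had 3 arrays from separate monolayers. A line treated once in culture is a single cell source, so the spread between arrays is that between monolayers.

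The question was whether the change with both proteins equalled the sum of the changes with each. Wnt3a binds Frizzled and LRP5/6 receptors, which stabilises β-catenin and lets it act with TCF/LEF factors at target genes. R-spondins bind LGR4, LGR5 and LGR6 and keep the ubiquitin ligases ZNRF3 and RNF43 from removing Wnt receptors from the cell surface, so that R-spondins are known mainly as amplifiers of a Wnt signal. Several target genes, such as *Axin2*, *Notum* and *Znrf3*, encode feedback inhibitors of the same pathway.

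The quantity reported is the interaction, the log2 change with Rspo2 plus Wnt3a against BSA less the sum of the log2 changes given by each protein. It is 0 where the 2 changes add on the log2 scale, positive where the signal with both proteins lay above that sum and negative where it lay below. Signals are given as log2 of the spot intensity relative to the 75th percentile of the same array, so a level of 0 is a probe at that percentile. The test took in the 20436 probes that were well above background on every array, and 11705 genes with a symbol were represented by their brightest tested probe. A probe was called when its adjusted p (limma, Benjamini-Hochberg over all 20436 probes) was under 0.05 and its interaction was at least 1 in size, a 2-fold departure from additivity. A gene that passed the filter had to be detected in every group, so genes switched on by the combination alone were not tested. Genes lowered below detection by either protein or by both were left out as well, so the counts of lowered genes are incomplete too.

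The arrays lay on 3 slides that did not divide the groups evenly. All BSA arrays were on slide 1, along with Rspo2 replicate 1. The remaining Rspo2 arrays shared slide 2 with replicates 1 and 2 of Wnt3a, and Wnt3a replicate 3 was on slide 3 next to the combination. When the fit also holds a term for slide, the interaction is the difference between the combination and Wnt3a replicate 3 on slide 3 less the difference between Rspo2 replicate 1 and BSA on slide 1, and so rests on 8 arrays with 2 lone ones. That quantity is called the slide-term value below. It is given for the genes described by array, and wherever a named gene was no longer called with slide as a term. The share of probes well above background ran from 51.3% to 64.2% per array, highest in BSA replicate 1, and arrays of a group correlated at 0.989 to 0.997 against 0.978 to 0.995 between groups. Of 10 luminal epithelial markers, *Krt8* alone was well above background on all arrays, *Cldn3* was so on 8, *Cldn4* on 4, *Krt18* on 3, *Krt19* and *Epcam* on 2, *Elf3* on 1 and *Cdh1*, *Cldn7* and *Esrp1* on none, while 6 of 10 basal or myoepithelial markers and 7 of 10 mesenchymal markers were detected on all 12.

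The 2 proteins departed from additivity at 247 probes. The interaction was positive at 125 probes, 0.612% of those tested, and negative at 122, or 0.597%. By brightest probe there were 48 genes above the sum (0.410% of genes tested) and 86 below it (0.735%). The median interaction of all tested genes was -0.10. With slide as a term 124 probes were called, 0.607% of those tested, and 80 of them were among the 247, all of which kept their sign. Leaving out 1 array gave 73 to 326 positive and 92 to 168 negative probes, with the extremes of the positive count reached without Wnt3a replicates 2 and 3. The balance of signs depended on scaling. Quantile normalization gave 62 positive and 153 negative probes, and scaling to the 75th percentile of the tested probes alone gave 201 and 82, with a median interaction over genes of 0.01. Of the alternatives run, background correction moved the counts most. After normexp correction of the raw mean signals, with an offset of 50 units added, 3 probes were called, 1 positive and 2 negative. The median residual SD of a probe was 0.24 instead of 0.14. An interaction of at least 1 in size, whatever its p, was found at 200 probes instead of 405. The part of the offset in this was not tested. When quantile normalization followed the normexp step, an alternative chosen after seeing the data, the counts were 39 positive and 40 negative.

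**Figure D1:**
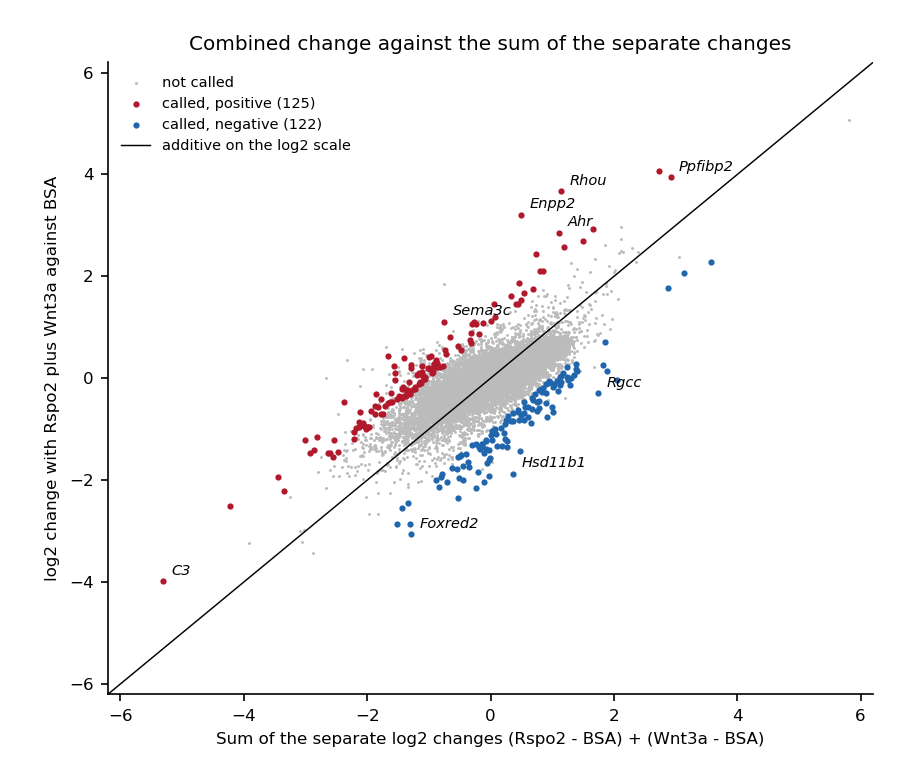
Each point is 1 of the 20436 tested probes. The horizontal axis is the sum of the separate log2 changes against BSA, the vertical axis the log2 change with both, and the line marks additivity. The 125 red probes lie above the line and the 122 blue ones below it, with *Enpp2* and *Rhou* far above at small sums and *C3* above it after the largest summed fall.

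Most genes that moved strongly with both proteins did not depart from additivity by a called amount. Among genes whose signal with both was 2-fold or more above BSA, 18 of 118 had a called positive interaction and 1 a negative one. Among genes 2-fold or more below it, 40 of 295 had a negative and 4 a positive interaction. These shares cannot be read against the background of all genes, because the change with both is itself a term of the interaction. The 95% interval of the interaction lay within -1 and 1 for 68 of the 118 and 156 of the 295. *Il33*, an alarmin cytokine, had the largest rise with both, 5.07 on the log2 scale. It was 2.35 with Rspo2 and 3.46 with Wnt3a, and its interaction of -0.74 (95% interval -1.02 to -0.47) was short of 2-fold. For *Ccl7*, a monocyte chemokine, the change with both was -2.97, the separate changes summed to -3.03, and the interaction was 0.06 (95% interval -0.37 to 0.49). *Il33* and *Ccl7* were picked out after their values were seen.

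The positive interactions fell into 3 shapes. In 26 probes (18 genes) the combination raised the signal at least 2-fold over BSA, in 84 (26 genes) it lay within 2-fold of BSA, and in 15 (4 genes) it lay at least 2-fold below. Of the 26 raised probes 14 were also called with slide as a term, against 13 of the 84 and 4 of the 15. The raised probes had a median mean intensity of 318 units, the 84 a median of 113 and all tested probes one of 972.

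The raised genes were led by *Enpp2*, which encodes autotaxin, the secreted lysophospholipase D that makes lysophosphatidic acid. Its levels were -3.58, -3.95 and -4.06 with BSA, -3.86, -4.47 and -4.58 with Rspo2, -2.88, -2.70 and -3.20 with Wnt3a, and -0.73, -0.68 and -0.54 with both. The combination arrays lay above all 9 others, while the Rspo2 and BSA arrays overlapped. The interaction was 2.71 (SE 0.27, adjusted p = 0.000351, limma), a 6.56-fold excess over the sum, and the slide-term value was 2.55.

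*Rhou* encodes an atypical small GTPase and is known to respond to Wnt1. Its levels were -1.97, -2.26 and -2.36 with BSA, -2.01, -2.23 and -2.38 with Rspo2, -1.16, -1.18 and -0.82 with Wnt3a, and 1.47, 1.39 and 1.59 with both. Rspo2 and BSA arrays overlapped throughout, Wnt3a arrays lay above both, and the combination stood higher than all others. The interaction was 2.54 (SE 0.19, adjusted p = 5.23e-05, limma) and its slide-term value 2.12.

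*Ahr*, the ligand-activated aryl hydrocarbon receptor, had levels of -0.54, -0.85 and -0.93 with BSA, -0.78, -0.64 and -0.79 with Rspo2, 0.31, 0.38 and 0.20 with Wnt3a, and 2.01, 2.06 and 2.19 with both. The Rspo2 arrays lay inside the range of the BSA arrays. Its interaction was 1.75 (SE 0.15, adjusted p = 0.000128, limma) and the slide-term value 1.88. Of the 15 tested genes in the list of *Ahr* and its targets, *Ahr* was the 1 called, and the median of the list was -0.13. The share called positive over all genes was 0.410%.

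The Wnt feedback genes that could be tested lay mostly above additivity. Of the 23 listed, 8 were tested, and 2 of those were called positive and 0 negative, with 7 of the 8 interactions above 0. Of all 11705 genes, 0.410% were called positive and 39.2% had an interaction above 0. The median interaction of the 8 was 0.73 against -0.10 for all genes, and 0.50 with slide as a term. The list was drawn up with earlier results of these data known, so these differences are description only. It also holds TCF/LEF factors such as *Tcf7* and receptor genes such as *Lgr4*. *Notum* encodes a secreted esterase that strips the lipid from Wnt proteins. Its levels were -0.71, -0.57 and -0.63 with BSA, -0.81, -0.70 and -0.68 with Rspo2, -0.41, -0.46 and -0.54 with Wnt3a, and 0.91, 0.77 and 0.81 with both, so that all 3 combination arrays exceeded the other 9 by more than 1 log2 unit. The interaction was 1.40 (SE 0.11, adjusted p = 5.9e-05, limma), a second probe gave 1.20, and the slide-term value was 1.54.

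*Tcf7*, a TCF/LEF transcription factor, rose from a mean of -2.40 ± 0.16 (SD, n = 3) with BSA to 0.18 ± 0.17 with both, through -2.28 ± 0.06 with Rspo2 and -1.33 ± 0.20 with Wnt3a. Its interaction was 1.38 and its slide-term value 1.59. *Apcdd1*, a membrane inhibitor of Wnt signalling, and *Tcf7l2* had interactions of 0.74 and 0.73, with adjusted p of 0.02 and 0.0051 (limma), and were below the 2-fold limit at their brightest probes. A dimmer probe of *Apcdd1* was called, at 1.31 (adjusted p = 0.0223, limma), but not with slide as a term (1.01, adjusted p = 0.262). The R-spondin targets *Znrf3* and *Rnf43* had interactions of 0.16 and 0.77, with adjusted p of 0.714 and 0.088. The receptor gene *Lgr4* had -0.33 (adjusted p = 0.142). *Axin2* was well above background on all 3 combination arrays and on 0 of the 9 others, so it had no measured interaction.

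Among 30 Wnt target genes 28 were tested, with *Enpp2*, *Rhou* and *Ahr* called positive, *Id2* called negative and a median of 0.15. The genes the study itself measured by qRT-PCR were chosen on these samples and are no independent evidence of direction. Of 50 such genes 35 were tested, 6 called positive and 2 negative. Of all genes tested 0.410% were called positive and 0.735% negative. The 6 included *Enpp2*, *Rhou* and *Ahr* again, so the lists of target and qRT-PCR genes are not separate sets. Also among the 6 were *Ppfibp2*, a liprin, at 1.02 and *Tgfb2*, a TGF-β ligand, at 1.25. *Ppfibp2* was higher with Rspo2 (-2.60 ± 0.17) than with BSA (-3.33 ± 0.14), higher again with Wnt3a (-1.14 ± 0.24), and highest with both (0.62 ± 0.16). The call of *Tgfb2* was lost without any 1 of 7 arrays, with interactions from 1.05 to 1.35 in those fits, and its slide-term value was 1.57 (adjusted p = 0.138).

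**Figure D2:**
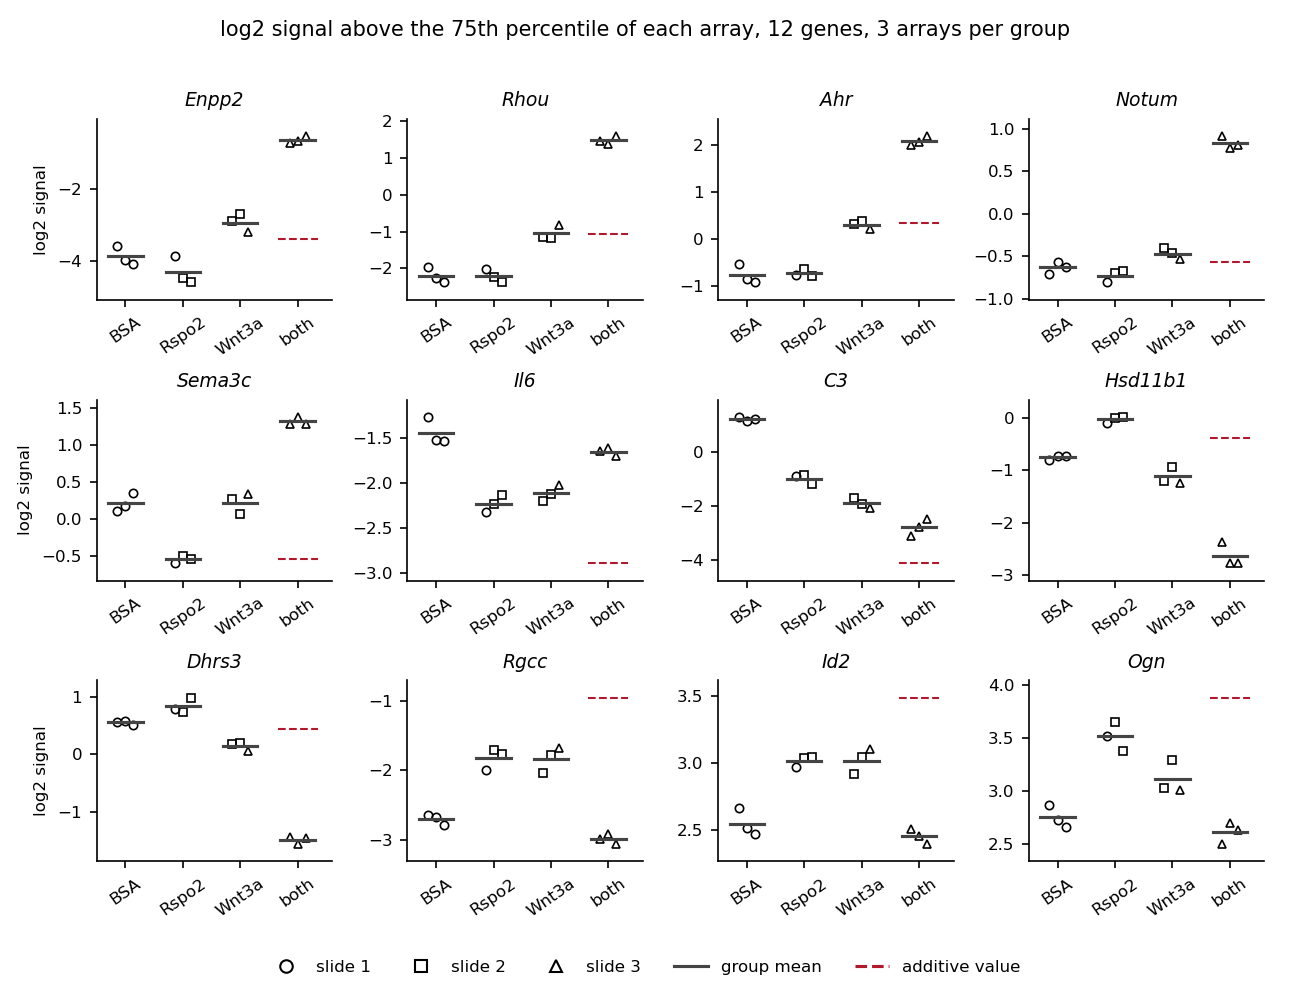
Log2 signal relative to the 75th percentile of each array for 12 genes, with 3 arrays per group, symbols by slide, bars at group means and a dashed line at the value that additivity would give for the combination. The combination arrays lie above the dashed line in the first 7 panels, from *Enpp2* to *C3*, and below it in the last 5, from *Hsd11b1* to *Ogn*.

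*Sema3c*, a secreted semaphorin that guides axons and migrating cells, differed from these in that Rspo2 alone lowered it. The BSA arrays read 0.11, 0.17 and 0.35, the Rspo2 arrays -0.60, -0.51 and -0.54, the Wnt3a arrays 0.27, 0.06 and 0.33, and the combination 1.29, 1.38 and 1.28. Wnt3a and BSA arrays overlapped, Rspo2 arrays lay below both and the combination above. The interaction was 1.86 (SE 0.13, adjusted p = 3.97e-05, limma), 1.81 at a second probe and 1.80 with slide as a term. The second, dimmer probe differed in shape. There Wnt3a alone gave -0.48 against BSA (adjusted p = 0.0288, limma) and the combination 0.40, short of 2-fold. *Arhgdib*, a GDP-dissociation inhibitor of small GTPases, shared the order of the brighter *Sema3c* probe. Its means were -2.00 with BSA, -2.40 with Rspo2, -1.87 with Wnt3a and -0.90 with both.

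Other genes raised by the combination were *Lypd2*, of the Ly6 family, at 1.71 and *Fndc1*, a fibronectin type III domain gene, at 1.36. The slide-term value of *Lypd2* was 1.26 (adjusted p = 0.0594) and that of *Fndc1* was 1.62 (adjusted p = 0.00529). The second tested probe of *Fndc1* had an interaction of 0.30 and was not called.

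In the second shape the signal was lower with each protein alone and near BSA with the combination. Of its 84 probes, 81 had both separate changes below 0. A positive call within 2-fold of BSA requires the separate changes to sum below 0, so this count follows in part from the selection. *Il6*, the interleukin 6 gene, read -1.27, -1.53 and -1.54 with BSA, -2.32, -2.24 and -2.13 with Rspo2, -2.20, -2.12 and -2.02 with Wnt3a and -1.65, -1.61 and -1.70 with both. No combination array overlapped an array of either single protein, and the interaction was 1.24 (SE 0.13, adjusted p = 0.000465, limma), the same with slide as a term. *Gfra2*, a co-receptor for neurturin, had group means of -2.50 ± 0.24, -3.17 ± 0.11, -3.39 ± 0.31 and -2.24 ± 0.19 in the same order, and its interaction was 1.82 against 1.39 with slide as a term (adjusted p = 0.0582).

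*Slc16a9*, a transporter of the monocarboxylate family, had an interaction of 1.64 and a slide-term value of 1.91. *Gbp3*, an interferon-inducible GTPase, had 1.01 and the same with slide as a term (adjusted p = 0.068). *Fgfr4*, a fibroblast growth factor receptor, had 1.17, which became -0.02 after normexp correction and 0.79 with slide as a term (adjusted p = 0.241). *Edc4*, a scaffold of mRNA decapping, had 1.29 and a slide-term value of 0.70 (adjusted p = 0.256). *Rps6kl1*, a kinase-like gene, had 1.40 and a slide-term value of 0.36 (adjusted p = 0.453), and its call was lost in 9 of the 12 fits that left out an array. Slide 2 held 4 of the 6 arrays given 1 protein, which is the pattern of this shape, and the part of the slide in it was not tested beyond these values.

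In the third shape the signal was lower with each protein and with both, but by less with both than the summed changes. *C3*, the central complement component, read 1.27, 1.13 and 1.19 with BSA, -0.91, -0.87 and -1.21 with Rspo2, -1.72, -1.93 and -2.08 with Wnt3a and -3.10, -2.78 and -2.47 with both. The 4 groups did not overlap and were ordered BSA, Rspo2, Wnt3a, both. With both proteins it fell by 3.98 on the log2 scale where the separate changes summed to -5.31, which is an interaction of 1.32 (SE 0.22, adjusted p = 0.0058, limma) with a slide-term value of 1.41 (adjusted p = 0.0837). *Zc3h12a*, an endoribonuclease that degrades inflammatory mRNAs, fell to like levels with Rspo2 (-2.73 ± 0.47), Wnt3a (-2.90 ± 0.13) and both (-2.82 ± 0.14) from -1.35 ± 0.08 with BSA. Its interaction was 1.46 and its slide-term value 0.82 (adjusted p = 0.113).

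The negative interactions took 2 main shapes. In 54 probes (40 genes) the combination lay at least 2-fold below BSA, and 44 of these had a change above 0 with Rspo2 and below 0 with Wnt3a. In 65 probes (45 genes) the combination lay within 2-fold of BSA, and 56 of these had both separate changes above 0. A negative call within 2-fold of BSA requires the separate changes to sum above 0, so the 56 follow in part from the selection. A further 3 probes were raised at least 2-fold. With slide as a term 30 of the 54 and 19 of the 65 were called. The arrays given 1 protein lay mostly on slide 2, which is also the pattern of most of the 65. The part of the slide in it was not tested beyond these values.

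*Hsd11b1* had the largest negative interaction. It encodes 11β-hydroxysteroid dehydrogenase type 1, which regenerates active glucocorticoid inside cells. Its levels were -0.81, -0.74 and -0.73 with BSA, -0.10, 0.00 and 0.01 with Rspo2, -1.20, -0.94 and -1.24 with Wnt3a, and -2.37, -2.76 and -2.77 with both. Rspo2 arrays lay above BSA, Wnt3a arrays below it, and the combination below all. The interaction was -2.24 (SE 0.16, adjusted p = 5.23e-05, limma), or -2.06 with slide as a term.

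*Dhrs3*, a retinal reductase of the retinoid pathway, read 0.55, 0.58 and 0.51 with BSA, 0.79, 0.74 and 0.98 with Rspo2, 0.17, 0.19 and 0.06 with Wnt3a and -1.44, -1.56 and -1.46 with both. The 4 groups again did not overlap and kept the order Rspo2, BSA, Wnt3a, both. Its interaction was -1.92 (SE 0.12, adjusted p = 1.99e-05, limma), -1.88 at a second probe and -1.80 with slide as a term.

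*Agt*, which encodes angiotensinogen, gave -2.28, -2.20 and -1.89 with BSA, -1.57, -1.67 and -1.5 with Rspo2, -2.99, -2.77 and -2.91 with Wnt3a and -3.95, -4.46 and -4.44 with both. Its interaction was -1.94 and its slide-term value -1.93. The group means had the same order in *Pde8a*, a cyclic AMP phosphodiesterase, at -1.91 and in *Col22a1*, a collagen chain, at -1.83.

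*Foxred2*, a flavoprotein of endoplasmic reticulum-associated degradation, differed from these in its change with Rspo2 alone, -0.13 (adjusted p = 0.411, limma). Its arrays read -1.56, -1.62 and -1.69 with BSA, -1.52, -1.87 and -1.87 with Rspo2, -2.79, -2.77 and -2.79 with Wnt3a, and -4.83, -4.74 and -4.48 with both. BSA and Rspo2 arrays overlapped, and the interaction was -1.76 (SE 0.16, adjusted p = 0.000182, limma) with a slide-term value of -1.99. *Egr2*, an immediate early transcription factor, had means of -1.30 with BSA, -1.26 with Rspo2, -1.69 with Wnt3a and -3.05 in the combination. Its interaction was -1.40 and its slide-term value -1.39.

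Further genes lowered by the combination were *Akr1c14*, a 3α-hydroxysteroid dehydrogenase, at -1.60, *Ccdc65*, a ciliary protein gene, at -1.62, and *Lman1l*, a lectin-like gene, at -1.56. *Angpt1*, the angiopoietin 1 ligand of the Tie2 receptor, had -1.10 and a slide-term value of -1.47. *Smoc1*, a matricellular protein gene, had -1.13, *Car9*, a carbonic anhydrase induced by hypoxia, -1.18, and *Abcg1*, a sterol exporter, -1.11. *Car9* was still called with slide as a term, while *Smoc1* (-1.19, adjusted p = 0.113) and *Abcg1* (-1.20, adjusted p = 0.184) were not. *Lgr6*, a receptor of R-spondins chosen after its values were seen, had means of -1.92 with BSA, -1.44 with Rspo2, -2.31 with Wnt3a and -3.25 in the combination. The interaction of *Lgr6* was -1.43 (adjusted p = 0.000465, limma), with a slide-term value of -1.34. A dimmer probe was also called but not with slide as a term (-0.86, adjusted p = 0.23). *Oasl1*, an oligoadenylate synthetase-like gene, had -1.5 and a slide-term value of -1.20 (adjusted p = 0.272), and its call was lost in 6 of the 12 fits that left out an array.

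Promoter motifs were counted for all called genes of each sign and for this shape. Its genes were grouped by their negative call and their fall with both proteins. RefSeq windows (GRCm38.p6, from 250 bases before to 50 after a start site) were at hand for 29 of its 40 genes and for 9011 genes tested, and a gene counted when any of its windows held the motif on either strand. The AP-1 site TGANTCA was in 20.7% of the 29 (6 genes) and in 6.36% of the 9011. The neighbouring genes *Sprr1a* and *Sprr1b* were both among these 6. The steroid receptor repeat ACANNNTGT was in 17.2% (5 genes) against 4.79%. GAAANNGAA, the core of the interferon-stimulated response element, was in 17.2% against 8.3%, and the TCF/LEF sequences CTTTGAT or CTTTGAA were in 6.9% against 7.09%. Of all 60 called negative genes with windows, 16.7% held the AP-1 site, 15% the steroid receptor repeat, 10% GAAANNGAA and 10% a TCF/LEF sequence. For the 34 called positive genes with windows these shares were 8.82%, 5.88%, 8.82% and 5.88%. Windows were at hand for 12 of the 18 raised genes, and not for *Enpp2*, *Ahr* or *Notum*. Of these 12, 0 held any of the 4 motifs, but so few windows cannot show that raised genes lack the sites. These shares are descriptions of few genes, and a match is not a bound site.

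A few of the windows with AP-1 matches are shown, each as the 250 bases before the start site with the match in capitals, for the cornified envelope genes *Sprr1a* and *Sprr1b*, which lie near each other on chromosome 3, and for *Car9*. *Sprr1a* (interaction -1.12) and *Sprr1b* (interaction -1.31) were chosen after their values were seen, and neither was called with slide as a term (values of -1.31 and -1.33, adjusted p of 0.0774 and 0.0644).
Sprr1a, chr3:92485882-92486131, minus strand: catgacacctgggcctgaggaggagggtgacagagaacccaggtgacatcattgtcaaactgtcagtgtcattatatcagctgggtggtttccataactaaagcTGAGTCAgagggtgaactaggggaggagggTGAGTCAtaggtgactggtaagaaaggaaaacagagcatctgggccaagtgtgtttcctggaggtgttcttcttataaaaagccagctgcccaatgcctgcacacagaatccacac
Sprr1b, chr3:92438780-92439029, minus strand: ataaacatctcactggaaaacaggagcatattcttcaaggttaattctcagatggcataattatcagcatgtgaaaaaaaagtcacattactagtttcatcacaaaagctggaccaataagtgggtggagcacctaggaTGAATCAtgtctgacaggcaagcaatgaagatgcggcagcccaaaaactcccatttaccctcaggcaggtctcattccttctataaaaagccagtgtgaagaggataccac
Car9, chr4:43506776-43507025, plus strand: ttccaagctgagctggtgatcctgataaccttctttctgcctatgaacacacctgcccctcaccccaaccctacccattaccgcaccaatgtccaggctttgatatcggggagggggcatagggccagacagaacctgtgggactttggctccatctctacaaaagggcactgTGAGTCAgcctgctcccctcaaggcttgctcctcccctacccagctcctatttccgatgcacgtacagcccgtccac

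In the second negative shape the signal was mostly higher with each protein alone and near the BSA level with the combination. *Rgcc*, a regulator of the cell cycle, read -2.64, -2.67 and -2.79 with BSA, -1.99, -1.71 and -1.76 with Rspo2, -2.04, -1.78 and -1.67 with Wnt3a and -2.99, -2.92 and -3.06 with both. The single-protein arrays overlapped each other and lay above all BSA arrays, while the combination lay below them. Its interaction was -2.04 (SE 0.15, adjusted p = 5.23e-05, limma) and its slide-term value -2.03.

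*Id2*, a dominant inhibitor of basic helix-loop-helix factors, was a bright probe of this shape. It read 2.67, 2.52 and 2.47 with BSA, 2.97, 3.04 and 3.05 with Rspo2, 2.92, 3.05 and 3.11 with Wnt3a and 2.51, 2.46 and 2.40 with both. The combination arrays overlapped those of BSA and the single-protein arrays lay above both. The interaction was -1.03 (SE 0.11, adjusted p = 0.000609, limma), a second probe gave -1.29, and the slide-term value was -1.07. *Id4* of the same family had -1.17, and these were the 2 genes called among 12 tested BMP and Id genes, whose median was -0.14. The share called negative over all genes was 0.735%.

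*Ogn*, the proteoglycan osteoglycin, read 2.87, 2.72 and 2.66 with BSA, 3.52, 3.65 and 3.38 with Rspo2, 3.03, 3.29 and 3.01 with Wnt3a and 2.50, 2.70 and 2.63 with both. Combination and BSA arrays overlapped, and the interaction was -1.26 (slide-term value -1.17). *Spp1*, which encodes osteopontin and was among the brightest probes at a mean intensity of 150000 units, had -1.06 and a slide-term value of -0.92 (adjusted p = 0.0812). With *Smoc1* these were the 3 called of 29 tested matricellular and proteoglycan genes, all negative, beside a list median of -0.07. Of all genes tested 0.735% were called negative.

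*Inmt*, a methyltransferase of indolethylamines, had -1.68, *Fez1*, a kinesin adaptor, -1.57, *Tm6sf1* -1.52, *Fabp4*, a fatty acid binding protein, -1.28 and *Angpt2*, a second angiopoietin, -1.01. Neither *Fabp4* (-1.12, adjusted p = 0.0636) nor *Angpt2* (-0.84, adjusted p = 0.034, below the 2-fold limit) was called with slide as a term. *Crabp2*, a carrier of retinoic acid, had -1.13 and a slide-term value of -1.11 (adjusted p = 0.106). *Slc16a8*, a lactate transporter gene, had an interaction of -2.09 (adjusted p = 0.0483, limma) that came with an SD of 1.17 among the Rspo2 arrays, a slide-term value of -0.48 (adjusted p = 0.398), and a call lost in 10 of the 12 fits that left out an array.

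At 58 called probes the change with Rspo2 passed its test in opposite directions without and with Wnt3a. At these probes the difference between Rspo2 and BSA and the difference between the combination and Wnt3a both had an adjusted p under 0.05, with opposite signs. The 2 differences share no arrays. Called probes were chosen on the gap between them, however, so opposite signs were favoured by that choice. Of all tested probes 20.2% passed the first test and 4.50% the second. In 45 of the 58 the signal was higher with Rspo2 alone and lower with Rspo2 on top of Wnt3a, with medians of 0.54 and -0.67, and in 13 the reverse held, with medians of -0.67 and 0.64. With slide as a term the 2 differences had opposite signs at all 58, though 3 probes met the full rule. For *Hsd11b1* Rspo2 gave 0.73 without Wnt3a and -1.51 with it, for *Dhrs3* 0.29 and -1.63, and for *Rgcc* 0.88 and -1.16. For *Sema3c* it gave -0.76 and 1.10, and for *Il6* -0.78 and 0.46. The count depended on arrays: it was 28 without Rspo2 replicate 3, 32 without BSA replicate 1 and 37 without BSA replicate 3.

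**Figure D3:**
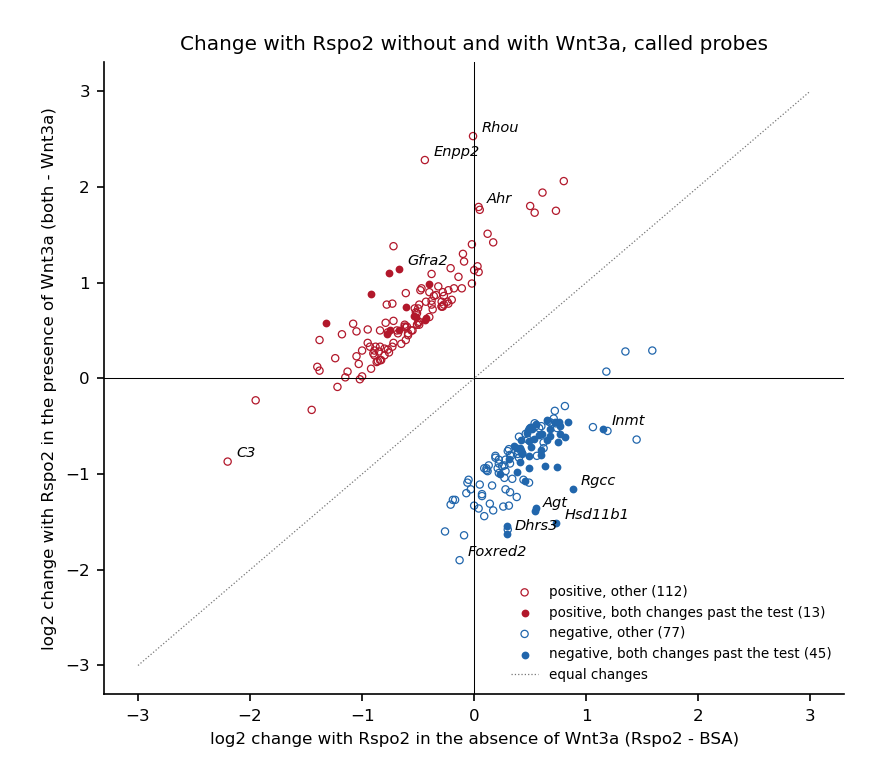
Each point is 1 of the 247 called probes, with the log2 change with Rspo2 in the absence of Wnt3a on the horizontal axis and in its presence on the vertical axis. Filled points are the 58 probes at which both changes passed the test in opposite directions, 45 of them negative (blue, lower right) and 13 positive (red, upper left). The genes *Rhou* and *Ahr* lie on the vertical axis, with Rspo2 changes near 0 unless Wnt3a was present.

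Steroid and retinoid genes had calls in 1 direction only, as did most lists with any call. Of all genes tested 0.735% were called negative. The lists were drawn up with earlier results of these data known, so nothing is read from a higher share. Of 18 tested glucocorticoid activation and response genes 3 were called, all negative, namely *Hsd11b1*, *Agt* and *Mt1*, a metallothionein, at -1.04. *Mt1* was not called with slide as a term (-0.82, adjusted p = 0.216), which left 2 of the 3, and its second tested probe, at -0.54, was not called in either fit. The list had a median of -0.31. Of 12 tested retinoid pathway genes, *Dhrs3* and *Crabp2* were called, *Dhrs3* alone with slide as a term, and the median was -0.07. Of 24 tested AP-1 and immediate early genes, *Egr2* and *Egr3* were called, both negative, with a median of -0.24. *Egr3* (-1.04) kept its call in 4 of the 12 fits that left out an array but not with slide as a term (-0.81, adjusted p = 0.218).

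Genes of inflammation and of the interferon response had list medians near 0. For comparison, 0.410% of all genes tested were called positive and 0.735% negative. Among 44 tested interferon-stimulated genes 1 was called positive (*Gbp3*) and 1 negative (*Oasl1*), with a median of -0.04. Neither was called with slide as a term. Of 11 tested chemokine genes and 19 MHC class I genes 0 were called, and their medians were -0.04 and -0.02. Of 33 listed acute phase and complement genes 17 were tested, so the counts leave out members not well above background on every array. Of the 17, 1 was called positive, *C3*, and 3 negative, *Orm2* (-1.21) and *Orm1* (-1.03) among them. *Orm1* and *Orm2* are close copies whose probes may detect both. None of the 4 was called with slide as a term, with values of -0.99 (adjusted p = 0.13) for *Orm2* and -1.09 (adjusted p = 0.1) for *Orm1*.

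Growth factor genes were scattered. The shares called over all genes tested were 0.410% positive and 0.735% negative. *Gfra2*, *Angpt1* and *Angpt2* were the 3 called of 23 tested GDNF, neurotrophin and other receptor tyrosine kinase genes, *Fgfr4* the 1 called of 15 FGF genes, *Tgfb2* the 1 called of 32 TGF-β family genes and *Sema3c* the 1 called of 23 guidance genes. Lists with 1 called gene, a negative one, were those of prostaglandin genes (*Pla2g2e*, a secreted phospholipase A2, at -1.29, not called with slide as a term at -1.18, adjusted p = 0.235), cyclic nucleotide genes (*Pde8a*), adipogenic genes and adipocyte markers (*Fabp4*), fatty acid and oxysterol genes (*Abcg1*), unfolded protein genes (*Foxred2*), hypoxia genes (*Car9*) and angiotensin genes (*Agt*).

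By brightest probe, 0 of 20 tested collagen chain genes and 0 of 18 tested integrin and laminin genes were called, with medians of 0.17 and 0.05. Single collagen probes outside that count were called. They were *Col22a1* (-1.83), which is not on the list, and dimmer probes of *Col1a1* (1.5, not called with slide as a term, adjusted p = 0.319) and *Col8a1* (1.16, slide-term value 1.03), both chosen after their values were seen. In all, 37 of 933 tested genes on the lists were called, or 3.97%, against 1.14% of all genes tested. The lists were drawn up with earlier results of these data known, so nothing is read from that difference. Of the 51 lists 26 had no called gene.

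Genes of basic cell functions lay slightly below additivity without any call, to a degree that depended on scaling. The median interaction was -0.39 for 74 ribosomal protein genes, -0.42 for 61 oxidative phosphorylation genes and -0.33 for 31 proteasome genes. After quantile normalization these medians were -0.02, -0.18 and -0.08. Bright genes in general were low, with a median of -0.29 in the brightest 2341 genes and 0.05 in the dimmest 2341, which became -0.04 and -0.10 after quantile normalization. The 24 cholesterol genes had a median of -0.41, or -0.17 after quantile normalization. For 48 S phase and mitosis genes the median was -0.03, with interactions from -0.43 to 0.62.

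**Figure D4:**
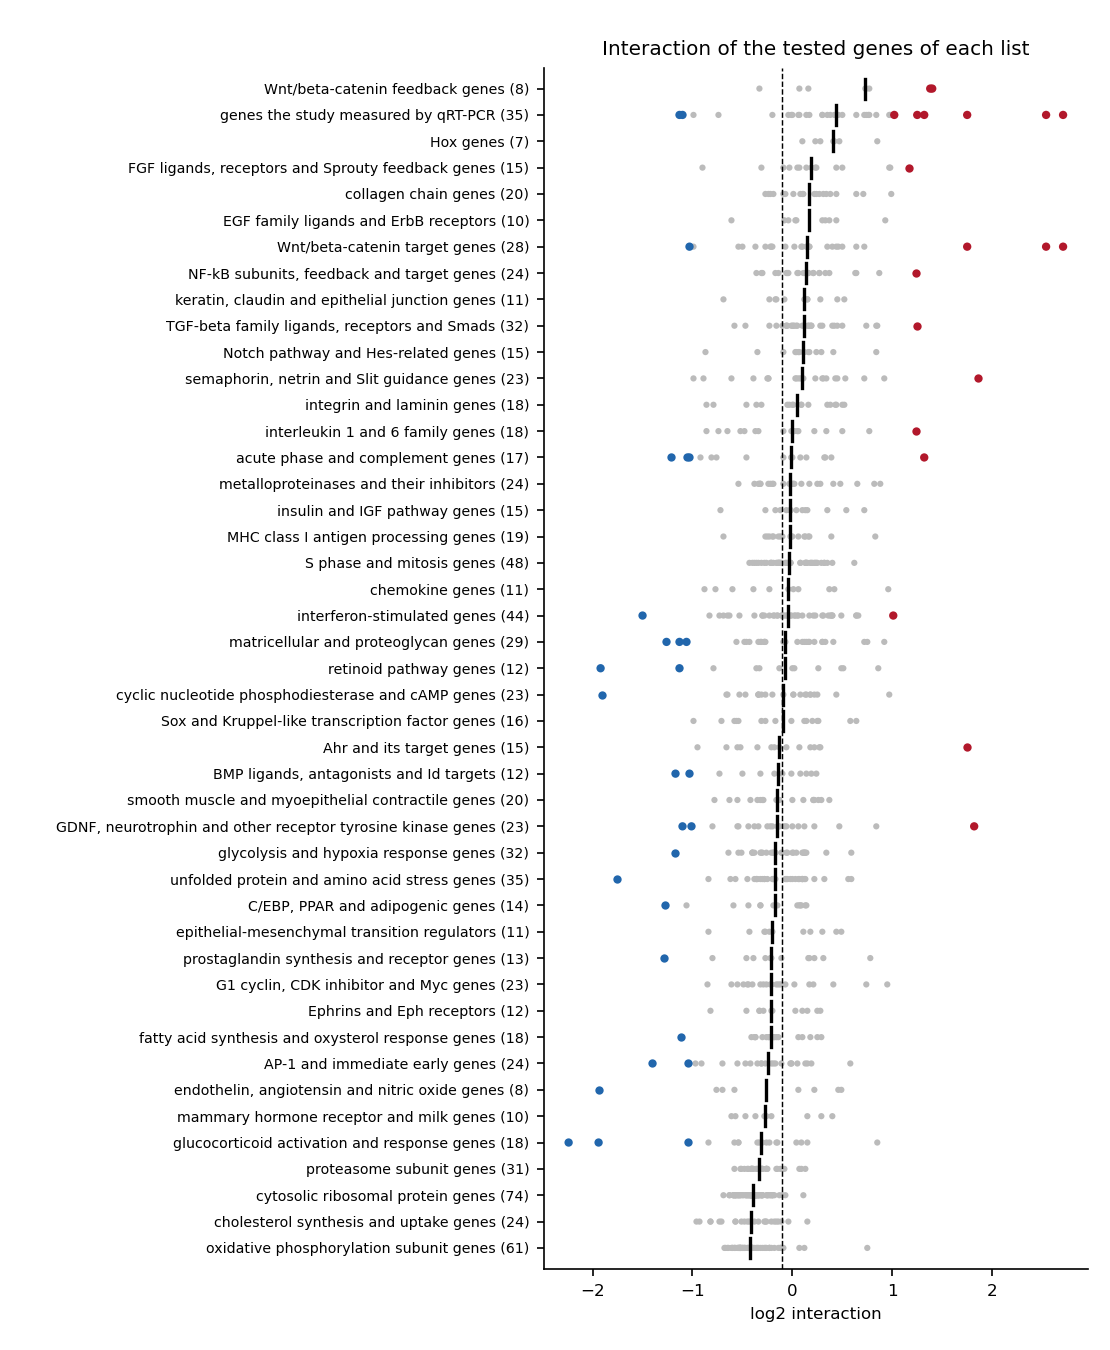
Log2 interaction of each tested gene in the gene lists with at least 7 tested genes, with the number tested in parentheses. Grey points are genes not called, red and blue points genes called positive and negative, black bars list medians and the dashed line the median of all genes, -0.10. Wnt feedback genes stand highest at 0.73 and the oxidative phosphorylation genes lowest at -0.42.

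Of all 53 genes named by rule, 30 were also called with slide as a term. Among the 30 with the largest interactions 22 were, the exceptions being *Gfra2*, *Lypd2*, *Zc3h12a*, *Rps6kl1*, *C3*, *Edc4*, *Slc16a8* and *Oasl1*, and among the 23 named from the lists alone 8 were, namely *Egr2*, *Il6*, *Ppfibp2*, *Ogn*, *Angpt1*, *Id2*, *Id4* and *Car9*. Of the 53, 17 lost their call in at least 1 fit that left out an array. Some of these sat at the 2-fold limit. *Crabp2* had -0.99 without Rspo2 replicate 3, *Angpt1* -0.99 without Wnt3a replicate 3, and *Id2* -0.99 without BSA replicate 3 or Wnt3a replicate 3. *Spp1* had -0.96 without Rspo2 replicate 3 and fell just short of the limit without Wnt3a replicate 2. *Pla2g2e* had adjusted p of 0.0531 without Rspo2 replicate 3 and 0.0554 without Wnt3a replicate 2 (limma). *Mt1* had -0.85 without Rspo2 replicate 3, an adjusted p of 0.052 (limma) without combination replicate 2 and -0.96 without combination replicate 3. *Gbp3*, *Ppfibp2*, *Orm1*, *Abcg1* and *Angpt2* lost theirs in 4 to 6 such fits, with values of 0.88 to 1.13 in size. Among the 247 called probes the slide term kept 31 of 125 positive and 49 of 122 negative calls.

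**Figure D5:**
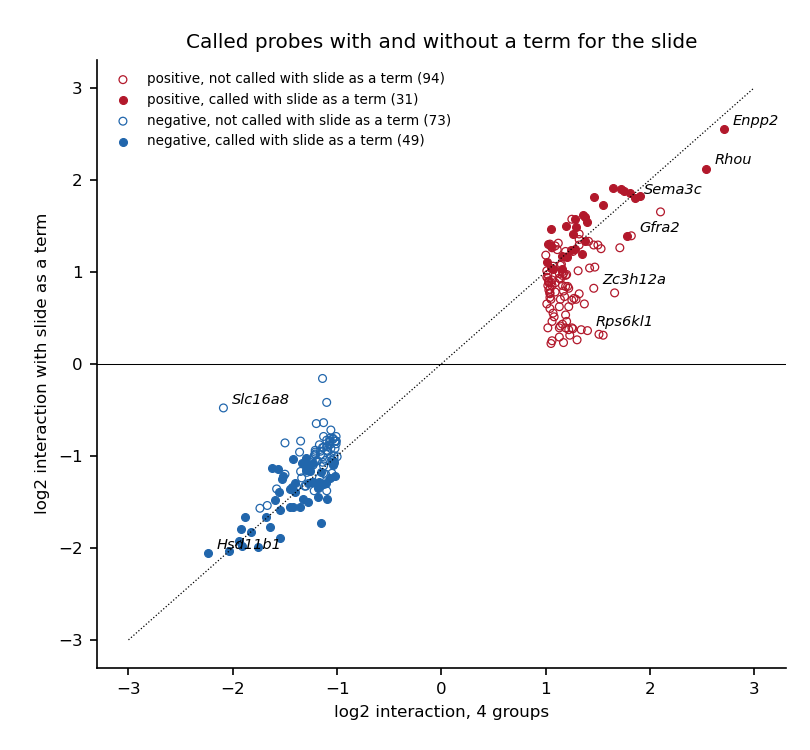
Log2 interaction of the 247 called probes in the fit of 4 groups (horizontal axis) and with slide as a term (vertical axis), where filled points are those called in both. All points keep their sign. *Enpp2* and *Hsd11b1* lie near the dotted line of equality, while *Slc16a8* and *Rps6kl1* drop to -0.48 and 0.36.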

How the data were processed

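Per the study's methods, cRNA amplified from the polyadenylated fraction of total RNA carried the Alexa-555 label and was hybridised to Agilent 1-colour mouse arrays of 60-base probes, 1 array per monolayer. The intensity values were deposited by the authors as scanner output of Agilent Feature Extraction 9.5.3.1, whose processed signal is already background-subtracted. A deposited table of ratio values (each probe's signal divided by the 75th percentile of its array, by the authors) served as an alternative. Spots flagged as outliers (1327 values) were left out, spots of a probe were averaged, and log2 of the processed signal less the array's 75th percentile was fitted with limma 3.58.1 in R 4.3.3 over 4 groups without covariates (8 residual and 3.59 prior degrees of freedom). The script was tested on simulated data. The number of arrays limits the precision. Symbols came through RefSeq accessions for 22951 of 41174 probes and from the scanner files for 11758. Probes are named by those annotations, which can be old.

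Named genes were the 15 largest positive and 15 largest negative called genes with a proper symbol and every called gene of 51 lists, of which 1 is not reported here. The comparison, the members and the lists were chosen with earlier results of these data known. The tests carried out were the interaction and, for its description, the differences between groups of the same fit. Alternatives covered background correction, scaling, filters, slide, replicate block, test, scale and the leaving out of each array.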

Additional observations from a re-analysis of the deposited data

Results flagged for a closer look

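At 16 named genes the change with Rspo2 passed its test in opposite directions in cells without and with Wnt3a. The interaction tests whether the 2 changes differ, and is no test of a difference in direction. With slide as a term, 3 probes in all met the rule of opposite directions. Fewer than 4 arrays per group left no test for single outlying arrays.

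Of these genes 12 had a negative interaction: *Hsd11b1* (-2.24), *Rgcc* (-2.04), *Agt* (-1.94), *Dhrs3* (-1.92), *Pde8a* (-1.91), *Col22a1* (-1.83), *Inmt* (-1.68), *Tm6sf1* (-1.52), *Fabp4* (-1.28), *Ogn* (-1.26), *Id2* (-1.03) and *Angpt2* (-1.01). The other 4 had a positive one, namely *Sema3c* (1.86), *Gfra2* (1.82), *Arhgdib* (1.38) and *Il6* (1.24). With slide as a term their values ran from -2.06 for *Hsd11b1* to 1.80 for *Sema3c*, none changed sign, and those of *Angpt2* (-0.84), *Fabp4* (-1.12) and *Gfra2* (1.39) were no longer called.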

How the results depend on the processing

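The main counts were 125 positive and 122 negative probes, 48 and 86 genes, and 58 probes whose change with Rspo2 had opposite directions without and with Wnt3a. Normexp correction gave 1 and 2 probes, 1 and 2 genes and 0 of the last kind, with 1394 probes at an unadjusted p under 0.05, and the cause was not tested. Normexp with quantile normalization gave 39 and 40 probes, 27 and 29 genes and 31. Slide as a term gave 51 and 73 probes, 26 and 45 genes and 3, from fewer residual degrees of freedom. The methods' t-test carried to the contrast gave 22 and 47 probes, 15 and 35 genes and 0 after Benjamini-Hochberg, and 147 and 122 probes and 70 at an unadjusted p under 0.05. Without a fold limit there were 697 and 1326 probes, 295 and 1034 genes and 130, and at 1.5-fold 467 and 709 probes, 183 and 545 genes and 129. On the linear scale there were 279 and 461 probes, 136 and 355 genes and 98. The limit there was 0.5 of the BSA mean in place of 2-fold, so these counts do not differ by scale alone. Positive counts moved to 62 probes with quantile normalization, to 201 probes and 85 genes with the 75th percentile of tested probes, to 290 and 123 with detection asked of 1 group, to 244 and 84 with the signal asked to be positive and significant, and to 76 probes with slide as a random block. Without a filter the last count was 8. Leaving out 1 array gave 73 to 326 positive and 92 to 168 negative probes, 35 to 116 and 68 to 120 genes, and 28 to 81 of the last kind, and the positive probes moved past 1.5-fold without Wnt3a replicates 3 (326) and 2 (73), Rspo2 replicates 1 (307), 2 (77) and 3 (74), BSA replicate 1 (77) and combination replicates 2 (76) and 3 (73). Wnt3a replicate 3 and Rspo2 replicate 1 are the lone arrays of their groups on their slides.

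With the replicate block there were 77 positive and 109 negative probes and 33 of the last kind. Samples share only a number: same-numbered arrays of different groups had deviations correlated at -0.52 to 0.32, over 0.1 in 3 of 18 pairs, and 3 of 12 arrays correlated best with an array of their own number.

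Of 53 named genes, 36 were called whichever array was left out. Over all settings 1 value changed sign, that of *Fgfr4* at -0.02 after normexp correction. Many calls rest on dim probes: 33 of the 48 positive and 48 of the 86 negative genes were among the dimmest 2341 of all tested.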
